A study of Mus musculus with 6 samples.

Results

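The MYC, MAX and MXD network is a group of transcription factors that share a basic helix-loop-helix leucine zipper and bind DNA as pairs. It was followed here through 9 genes, *Myc*, *Mycn*, *Max*, *Mxd1*, *Mxd3*, *Mxd4*, *Mxi1*, *Mnt* and *Mlx*, chosen by gene symbol from the 41128 genes of an RNA sequencing table. The cells were murine acute myeloid leukemias (AML) initiated with *Hoxa9*, either alone with an empty vector or together with *IRX3*, and the comparison asks which transcripts differ when *IRX3* is added. None of the 8 expressed members differed between the cohorts beyond the spread between mice, and *Mycn* had no reads. The wide differences lay between individual leukemias instead. *Myc* ranged from 40.6 to 128.8 RPKM (reads scaled to gene length and library depth) over the 6 mice, with its highest value in 1 *Hoxa9*/*IRX3* leukemia, and *Mlx* and *Mxd3* were highest in another.

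Both cohorts began with KIT+ bone marrow (BM) cells of 6 to 12 week-old female CD45.1+ mice. The cells received a retrovirus carrying FLAG-tagged *Hoxa9* and, beside it, either the empty vector MTV (*Hoxa9*/MTV, mice 1.1, 1.2 and 1.4) or the human *IRX3* coding sequence fused to a MYC epitope tag (*Hoxa9*/*IRX3*, mice 3.2, 3.3 and 3.5). After drug selection they were transplanted into irradiated C57BL/6 CD45.2+ recipients, and donor-derived KIT+Gr1+ leukemia cells were sorted from BM of the sick mice, giving 1 library per mouse and 3 mice per cohort. Expression is therefore driven by a viral promoter in all cells carrying the vector, the recipients keep their own tissues, and whether mice of a cohort received cells from separate transductions is not stated in the sources used here, so that p-values measure the spread between these mice.

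The steps between low RPKM values gave 7979246 to 9803621 reads per library as the number the RPKM divide by. Reads recovered per gene summed to more, 8365282 to 10178715 per library, and why the sums are larger was not tested. Across genes, log2 values of control mice correlated with each other at 0.978 to 0.983, whereas those of the *Hoxa9*/*IRX3* cohort did so at 0.917 to 0.925, so the second cohort was the more varied. Murine *Irx3*, the gene to which reads of the human coding sequence may align only in part, was at 0 RPKM in each control. In mouse 3.2 it reached 15.1 RPKM, in mouse 3.3 0.421 RPKM and in mouse 3.5 0.148 RPKM. *Hoxa9*, the gene given to both cohorts, was at 340.1, 363.0 and 174.4 RPKM in the first cohort and at 241.9, 154.0 and 221.3 RPKM in the second (limma, adjusted p = 0.420). Across the 9522 protein-coding genes tested, 510 passed at an adjusted p under 0.05, which is 5.36%. Of all tested genes 1.84% passed as higher and 3.52% as lower in *Hoxa9*/*IRX3* cells, or 175 and 335 genes. With quantile normalization 234 of 508 passing genes were higher. An unadjusted p under 0.05 was reached by 24.3% of tested genes, the values of the cohorts did not overlap for 33.7%, and the criterion of the study, an unadjusted p under 0.05 with a ratio over 2, was met by 6.97%.

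In outline, MYC activates transcription only when paired with MAX, and together they read the E-box, a short palindrome of DNA. MAX also pairs with the MXD proteins (MXD1, MXD3, MXD4 and MXI1), with MNT and with MGA, and the MXD and MNT pairs bring SIN3 corepressors to the same kind of site, so the network is usually described as a contest for MAX. MLX is a second hub that pairs with MXD1, MXD4 and MNT and with the nutrient sensors MLXIP and MLXIPL. In blood cells, *Myc* is known for its high level in dividing progenitors and its fall on terminal granulocytic maturation, when *Mxd1* rises.

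The DNA next to several of these genes carries the same motif that their proteins read, which is why the sites are printed here. In RefSeq promoter windows of GRCm38.p6, running from 250 bases before to 50 bases after each gene start, the letters CACGTG (the same on both strands) were searched. A window was found for 8 members, with *Myc* unmatched. The motif lay in the windows of *Max*, *Mlx*, *Mnt* and *Mxd4*, 1 time in each, and not in those of *Mycn*, *Mxd1*, *Mxd3* or *Mxi1*. That is 50% of the members with a window, beside 8.09% of 27025 genes and 12.4% of the tested genes with a window. The 30 bases around each motif are given 5′ to 3′ on the strand of the gene, with the motif in capitals.
Max: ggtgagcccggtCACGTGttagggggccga
Mlx: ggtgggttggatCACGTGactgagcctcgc
Mnt: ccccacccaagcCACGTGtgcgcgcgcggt
Mxd4: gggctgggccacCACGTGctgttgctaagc
The first lies at chr12:76962234-76962263 on the minus strand, with the motif beginning 3 bases before the gene start. The second is at chr11:101087238-101087267 on the plus strand, 40 bases before the start. The *Mnt* window is at chr11:74830789-74830818 on the plus strand, with the motif 123 bases before the start, and that of *Mxd4* at chr5:34187912-34187941 on the minus strand, 219 bases before. A match of letters describes these windows and says nothing of binding in these cells.

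*Myc*, the activator of the network (chr15:61985391-61990374, plus strand, GRCm38), was at 58.7, 40.6 and 78.5 RPKM in *Hoxa9*/MTV mice 1.1, 1.2 and 1.4, and at 128.8, 44.9 and 53.1 RPKM in *Hoxa9*/*IRX3* mice 3.2, 3.3 and 3.5. The values rest on 1697 to 5744 reads per library. Mouse 3.2 stood above every other mouse, while mice 3.3 and 3.5 fell within the range of the controls, so the cohorts overlapped. Means were 59.3 ± 19.0 RPKM (SD, n = 3) without *IRX3* and 75.6 ± 46.2 RPKM (SD, n = 3) with it, a log2 fold change of 0.24 with a SE of 0.44 on log2(RPKM + 0.5) (limma, adjusted p = 0.768). The 95% interval, -0.81 to 1.29, admits a level from 0.570 to 2.44 times that of the control cohort. The direction rested on single animals, since the log2 fold change was -0.23 without mouse 3.2 and -0.0074 without mouse 1.2. Mouse 3.2 was also the animal with the highest murine *Irx3* value, and the part of that in its *Myc* level was not tested.

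*Mycn*, the paralog of *Myc* best known from neural and embryonic tissue (chr12:12936093-12941914, minus strand), had 0 reads in all 6 libraries. A count of 0 allows at most 3 reads, or 0.0526 to 0.0646 RPKM depending on the library, by counting error alone. It was below the expression threshold and was not tested.

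*Max*, the obligate partner (chr12:76937269-76962201, minus strand), was the steadiest member. It was at 7.03, 7.61 and 7.66 RPKM without *IRX3* and at 6.62, 6.06 and 7.25 RPKM with it. Mouse 3.5 lay inside the control range and the other 2 below it. The log2 fold change was -0.15 with a SE of 0.12 (adjusted p = 0.475), and its interval reached from 0.735 to 1.10 times the control level. The SD of *Max* within cohorts was 0.097 on the log2 scale, beside a median of 0.21 over all tested genes and 0.66 for *Myc*.

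Among the MXD repressors, *Mxd1* is the one best known from myeloid maturation (chr6:86647042-86669161, minus strand). It was at 4.17, 4.34 and 4.81 RPKM in the controls and at 7.30, 4.52 and 4.93 RPKM in mice 3.2, 3.3 and 3.5. Again mouse 3.2 was highest, with the other 5 mice between 4.17 and 4.93 RPKM. The log2 fold change was 0.27 with a SE of 0.19 (adjusted p = 0.405, interval 0.886 to 1.65 times), and 0.081 without mouse 3.2. *Myc* and *Mxd1*, which act in opposite directions on MAX-bound sites, thus had their highest value in the same leukemia.

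*Mxi1*, a further MXD repressor (chr19:53310518-53375810, plus strand), was at 3.21, 3.86 and 3.29 RPKM in the controls and at 4.57, 3.85 and 3.49 RPKM with *IRX3*. Mouse 3.2 was once more the highest and the remaining values interleaved (log2 fold change 0.17, SE 0.14, adjusted p = 0.474). *Mxd4* (chr5:34173883-34187720, minus strand) was at 18.6, 17.3 and 16.2 RPKM in the controls and at 17.4, 13.4 and 18.1 RPKM in mice 3.2, 3.3 and 3.5. Only mouse 3.3 lay outside the control range, on the low side (log2 fold change -0.10, SE 0.16, adjusted p = 0.731), and without it the log2 fold change was 0.032. *Mnt*, the repressor of the network that is present in resting and dividing cells alike (chr11:74830920-74845725, plus strand), was at 5.93, 3.92 and 5.08 RPKM in the controls and at 5.31, 3.99 and 4.22 RPKM with *IRX3*. All 3 *Hoxa9*/*IRX3* values lay inside the range of the controls (log2 fold change -0.12, SE 0.18, adjusted p = 0.712).

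*Mxd3*, the MXD gene known from cells in S phase (chr13:55325168-55329823, minus strand), was the lowest of the expressed members and varied most after *Myc*. It was at 2.41, 1.81 and 2.72 RPKM in the controls and at 1.06, 4.02 and 2.76 RPKM in mice 3.2, 3.3 and 3.5, from 43 to 181 reads. The *Hoxa9*/*IRX3* cohort held both the lowest and the highest of the 6 values. The log2 fold change was 0.026 with a SE of 0.38 (adjusted p = 0.976), and it lay between -0.31 and 0.46 when single mice were left out. The gene overlaps *Prelid1* on the opposite strand, which was at 23.6 to 32.5 RPKM, and since the sources used here do not say whether counting used strand, reads of the pair may be shared.

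*Mlx*, the second hub (chr11:101087277-101092207, plus strand), was the single member whose cohorts did not overlap, 1 of 8 or 12.5% beside the 33.7% of all tested genes. It was at 16.0, 16.5 and 15.5 RPKM in the controls, a narrow range, and at 20.0, 35.6 and 16.8 RPKM in mice 3.2, 3.3 and 3.5. Mouse 3.3 stood far above the others, while mouse 3.5 exceeded the highest control by little. Means were 16.0 ± 0.51 RPKM (SD, n = 3) and 24.1 ± 10.1 RPKM (SD, n = 3), a log2 fold change of 0.50 with a SE of 0.28 (limma, adjusted p = 0.308, interval 0.897 to 2.24 times). Without mouse 3.3 the log2 fold change was 0.19. The 3′ end of *Mlx* overlaps *Psmc3ip* on the opposite strand, which was also highest in mouse 3.3, at 3.19 RPKM against 0.971 to 2.00 RPKM in the other mice, and its part in the *Mlx* value was not tested.

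**Figure D1:**
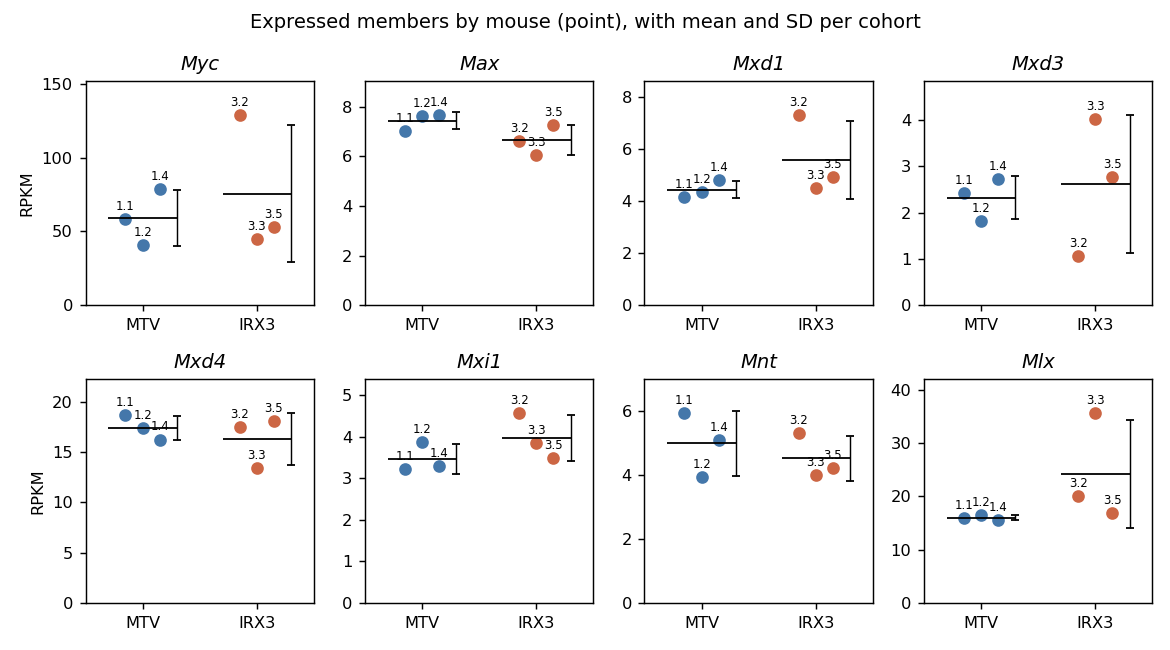
RPKM of the 8 expressed members, 1 panel per gene with its own axis from 0, in Hoxa9/MTV (blue) and Hoxa9/IRX3 (orange) mice. Points are single mice with their numbers, the horizontal line is the mean of 3 and the bar its SD. Mouse 3.2 is highest for Myc, Mxd1 and Mxi1, and mouse 3.3 for Mlx and Mxd3.

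Read together, 0 of 8 tested members passed at an adjusted p under 0.05, beside 5.36% of tested genes, and 0 of 8 had an unadjusted p under 0.05 in limma, beside 24.3%. The criterion of the study was met by 0 of 8 as well. The estimate was above 0 for 5 members and below it for 3, with a median log2 fold change of 0.10 beside -0.063 over all tested genes. For 6 of the 8, *Max*, *Mxd1*, *Mxd3*, *Mxd4*, *Mxi1* and *Mnt*, the 95% interval stayed within a 2-fold change either way. For *Myc* and *Mlx* it did not, so a rise beyond 2-fold in these genes could not be told from no change with 3 mice per cohort. A p above the threshold does not show that the cohorts were equal. In RNA from sorted populations, fewer cells that express a gene and less of its RNA per cell cannot be told apart.

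**Figure D2:**
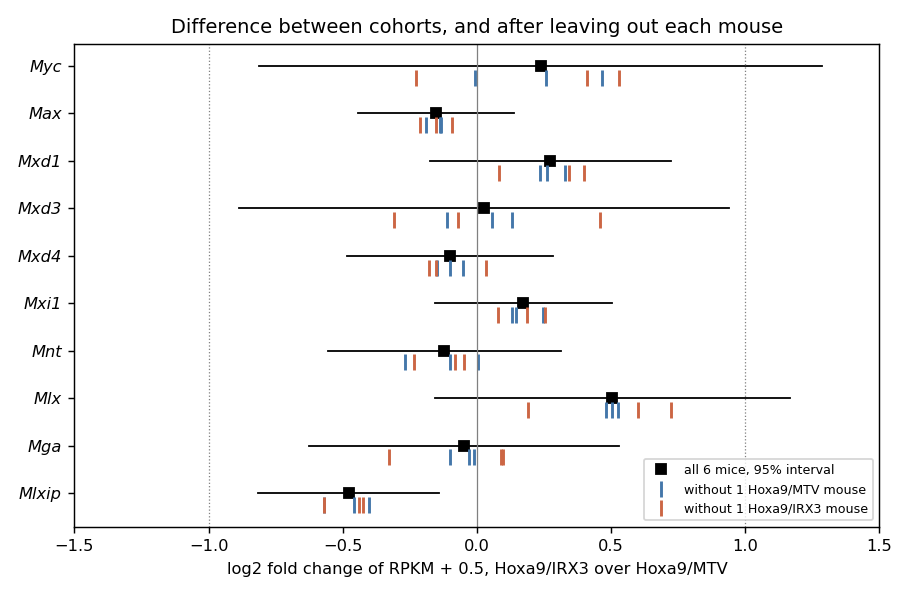
Log2 fold change of RPKM + 0.5, Hoxa9/IRX3 over Hoxa9/MTV, for the 8 expressed members and for Mga and Mlxip. Squares with lines are limma estimates with 95% intervals from 6 mice, ticks under them are estimates with 1 mouse left out (blue, a Hoxa9/MTV mouse; orange, a Hoxa9/IRX3 mouse), and dotted lines mark 2-fold. The intervals of all 8 members include 0, and leaving out mouse 3.2 takes Myc to -0.23.

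The deposited RPKM divide by the full span of each gene with its introns, which makes compact genes look more abundant. Levels were therefore compared between genes as exon-scaled RPKM, in which recovered reads are divided by the summed exon length of the gene in place of its span. That length joins the exons of all transcript forms, and whether intron reads were counted is not stated in the sources used here. An order of genes on this scale therefore need not be an order of transcript numbers. On that scale *Myc* had the highest mean over the 6 mice, 125.0 ± 60.8 (SD, n = 6), followed by *Mlx* at 49.5 ± 19.2, *Max* at 48.9 ± 4.26, *Mxi1* at 35.5 ± 4.80, *Mxd4* at 27.5 ± 3.07, *Mxd1* at 15.7 ± 3.61, *Mnt* at 15.2 ± 2.62 and *Mxd3* at 4.78 ± 1.94. *Myc* exceeded *Mlx* in 5 of 6 mice, the exception being mouse 3.3, with 83.3 for *Myc* and 87.9 for *Mlx*. *Mlx* and *Max* were not separated, since *Mlx* was the higher in 2 of 6 mice, nor were *Mxd1* and *Mnt*, with *Mxd1* the higher in 4 of 6. The steps from *Max* to *Mxi1*, *Mxi1* to *Mxd4*, *Mxd4* to *Mxd1* and *Mnt* to *Mxd3* ran the same way in 6 of 6 mice.

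The exon-scaled levels of *Mxd1*, *Mxd3*, *Mxd4*, *Mxi1* and *Mnt* were then summed in each mouse and set beside *Myc*. The sum of the repressors varied little, at 97.8, 94.9 and 94.5 in the controls and 114.0, 93.4 and 97.1 in mice 3.2, 3.3 and 3.5. The ratio of *Myc* to the summed repressors followed *Myc*. It was 1.11, 0.793 and 1.54 in mice 1.1, 1.2 and 1.4, and 2.09, 0.892 and 1.01 in mice 3.2, 3.3 and 3.5. On this scale *Myc* stood about 2.09 to 1 above the summed repressors in mouse 3.2. It stood below them in mouse 1.2 and mouse 3.3, which belong to different cohorts. Set against *Max*, the *Myc* level was 1.42 to 2.74 times as high in the controls, and 5.19, 1.98 and 1.95 times in mice 3.2, 3.3 and 3.5. These are ratios of exon-scaled reads and not of transcript numbers, and protein was not measured in these files.

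**Figure D3:**
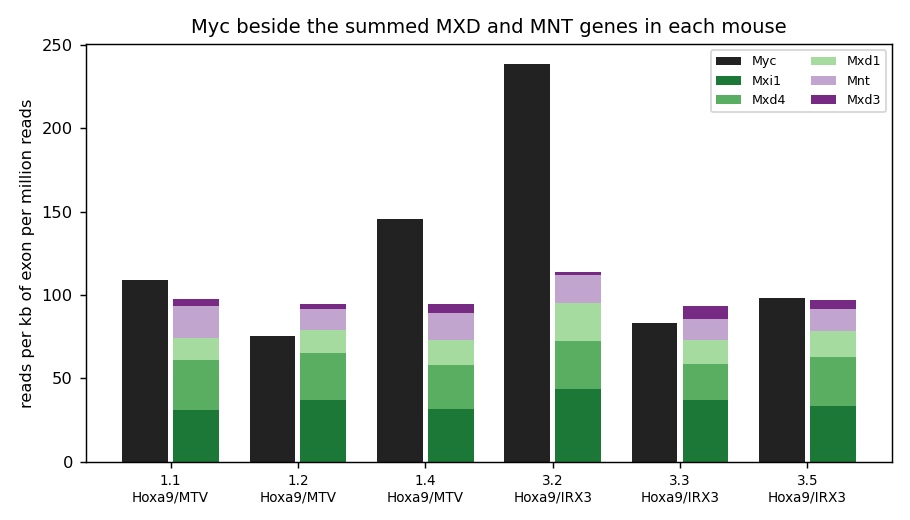
Exon-scaled RPKM (reads per kb of exon and library depth) for Myc (black bar) and for 5 repressor genes stacked (coloured bar) in each mouse. The stacked bars reach 93.4 to 114.0, while the Myc bar runs from 75.2 in mouse 1.2 to 238.6 in mouse 3.2.

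Of the partners of MAX and MLX outside the members, *Mga*, which joins a MAX-binding zipper to a T-box, was at 2.75, 2.37 and 2.67 RPKM in the controls and 3.92, 1.97 and 1.96 RPKM with *IRX3*. Mouse 3.2 was above the control range and the other 2 *Hoxa9*/*IRX3* mice below it (limma, log2 fold change -0.047, SE 0.24, adjusted p = 0.923), and median-of-ratios or quantile scaling turned the sign of the estimate. *Mlxip*, the glucose-responsive partner of MLX, was at 3.06, 3.99 and 3.65 RPKM in the controls and at 2.80, 2.20 and 2.25 RPKM with *IRX3*. All 3 *Hoxa9*/*IRX3* values lay below the controls, and for 33.7% of all tested genes the cohorts likewise did not overlap. The log2 fold change was -0.48 with a SE of 0.14, yet the adjusted p in limma was 0.104. The unadjusted p in limma was 0.0127, and 24.3% of all tested genes had one under 0.05. Over 17 alternative settings the log2 fold change of *Mlxip* ran from -0.57 to -0.38 and the adjusted p from 0.067 to 0.304.

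The other 2 partners were near the limit of detection. *Mycl*, the third MYC paralog, had 15, 9 and 17 reads in the controls, or 0.248, 0.159 and 0.257 RPKM, and 0 reads in each *Hoxa9*/*IRX3* library. Against a limit of 3 reads per library it was at least 4.45-fold lower with *IRX3*. *Mlxipl*, the paralog of *Mlxip* best known from liver, was at 0 RPKM in each control and at 0.0394, 0.0194 and 0.0159 RPKM in mice 3.2, 3.3 and 3.5. Those values stand in the ratio of 11, 6 and 4 reads, and the exact read number depends on the gene length used by the authors. For both genes the cohorts did not overlap (p = 0.1 in a two-sided exact permutation test, the lowest value this number of mice can give), and neither passed the expression threshold for the test across genes.

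The machinery through which the members act was read next. Of 10 genes for SIN3 and NCOR corepressors, which carry out repression for MXD and MNT, 0 rose and 0 fell at an adjusted p under 0.05, with a median log2 fold change of -0.095 beside -0.063 over all tested genes. At an unadjusted p under 0.05, 2 were higher and 2 lower, or 40% of the list beside the 24.3% of all tested genes, and for 5 of the 10, or 50%, the cohorts did not overlap, beside 33.7%. The 4 with an unadjusted p under 0.05 are named after their values were seen. The deacetylase gene *Hdac2* was at 1.92 ± 0.10 RPKM (SD, n = 3) in the controls and 2.46 ± 0.0084 RPKM (SD, n = 3) with *IRX3*, and *Ncor1*, a corepressor scaffold, at 2.11 ± 0.28 and 2.69 ± 0.15 RPKM. In the other direction, *Sap30*, a subunit of the SIN3 complex, was at 9.06 ± 1.83 and 5.55 ± 1.34 RPKM, and the histone chaperone gene *Rbbp4* at 8.21 ± 0.94 and 6.31 ± 0.37 RPKM. Their adjusted p in limma lay between 0.125 and 0.199.

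Of 12 genes for MYC cofactors, 0 passed, with a median log2 fold change of -0.029. An unadjusted p under 0.05 was reached by 1 of them, 8.33% of the list beside the 24.3% of all tested genes. The cohorts did not overlap for 3 of the 12, or 25%, beside 33.7%. The gene with that p was *Actl6a*, a subunit of histone acetyltransferase and remodeling complexes, named after its values were seen. It was at 1.95 ± 0.12 and 1.03 ± 0.35 RPKM (limma, adjusted p = 0.076). Of 10 regulators of MYC protein turnover 8 were over the expression threshold and 0 of them passed the test, with a median log2 fold change of 0.12. *Fbxw7*, at 0.200 and 0.168 RPKM on average, and *Usp28*, at 0.309 and 0.302 RPKM, were detected but below the threshold, and were not tested. One of them, *Pim1*, a kinase gene induced by cytokines and singled out here after its values were seen, followed *Myc* in part. It was at 10.4, 10.8 and 52.4 RPKM in mice 1.1, 1.2 and 1.4 and at 98.2, 31.2 and 42.0 RPKM in mice 3.2, 3.3 and 3.5, so the highest and the next highest mouse were the same animals as for *Myc*.

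Whether the transcripts that MYC is known to raise moved with the cohort was read from 59 such genes, mostly for ribosome biogenesis, nucleotide synthesis and metabolism, all of them expressed. None passed in either direction (0 higher and 0 lower at an adjusted p under 0.05). The median log2 fold change was -0.076 beside -0.063 over all tested genes. At an unadjusted p under 0.05, 5 of the 59 stood out, which is 8.47% beside the 24.3% of all tested genes, and the cohorts did not overlap for 11.9% beside 33.7%. The 5 are named after their values were seen. *Mcm4*, a subunit of the replicative helicase, was at 9.41 ± 0.35 RPKM (SD, n = 3) in the controls and 12.2 ± 1.69 RPKM (SD, n = 3) with *IRX3*, and *Prdx3*, a mitochondrial peroxidase, at 4.01 ± 0.32 and 5.01 ± 0.20 RPKM. The other 3 serve ribosome assembly and were lower with *IRX3*. *Fbl* was at 1.59 ± 0.35 and 0.744 ± 0.15 RPKM (limma, adjusted p = 0.054). *Pes1* was at 2.23 ± 0.43 and 1.50 ± 0.34 RPKM, and *Ppan* at 28.4 ± 3.66 and 18.2 ± 7.08 RPKM. Without mouse 3.2, *Ppan* passed as lower, with a log2 fold change of -0.97 and an adjusted p of 0.043.

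Between single leukemias the same 59 genes did vary. After each gene was centred on its own mean, the median of the list was -0.040, -0.049 and 0.19 in mice 1.1, 1.2 and 1.4 and 0.18, -0.11 and -0.20 in mice 3.2, 3.3 and 3.5, in log2 units. Mice 1.4 and 3.2, 1 from each cohort, were thus the 2 above their mean, and they were also the 2 with the highest *Myc*. Of the 59 genes, 47 had their highest value in mouse 1.4 or mouse 3.2, or 79.7%, beside 40.5% of all tested genes. This describes 6 mice that share libraries and depth between the measures, and no test was run on it. Mice 3.3 and 3.5 had lower list medians than mice 1.1 and 1.2, although their *Myc* was at 44.9 and 53.1 RPKM and thus between the 2 controls.

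Genes that MYC is known to lower did not all share 1 order over the mice. Of 6, 5 were over the expression threshold and 0 of them passed the test, with a median log2 fold change of -0.017. Centred in the same way, their median was -0.48, -0.045 and 0.38 in mice 1.1, 1.2 and 1.4. It was 0.33, -0.14 and -0.37 in mice 3.2, 3.3 and 3.5, so mice 1.4 and 3.2 were again the highest. *Cdkn1a*, a cell cycle inhibitor, was at 3.20, 3.94 and 8.05 RPKM in the controls and 6.74, 4.18 and 3.51 RPKM with *IRX3*. *Gadd45a*, a stress-response gene, was at 6.18, 10.3 and 20.0 RPKM and at 25.9, 11.4 and 6.47 RPKM. Both were singled out after their values were seen. Mice 1.4 and 3.2 were the highest for both. The other 3 tested genes did not share this order. *Ndrg1*, a stress-response gene, was at 2.59, 2.25 and 1.79 RPKM in the controls and 1.34, 0.713 and 2.09 RPKM with *IRX3*. *Cebpa*, a granulocytic transcription factor, was highest in mouse 1.4, at 212.7 RPKM, and next highest in mouse 3.3, at 190.9 RPKM. *Cdkn1b*, a cell cycle inhibitor, was highest in mouse 3.2, at 27.5 RPKM, and next highest in mouse 1.1, at 26.8 RPKM. Among 2537 genes averaging 5 RPKM or more, those closest to *Myc* over the 6 mice were *Nop2*, an rRNA methyltransferase gene in the list of 59, *Chchd4*, for mitochondrial import, and *Vamp8*, for vesicle fusion. Their root mean square difference from the centred *Myc* profile was 0.22, 0.23 and 0.23 in log2 units, beside a median of 0.60 over the genes compared. *Nop2* was at 5.46, 4.13 and 7.03 RPKM in the controls and 10.6, 5.67 and 4.26 RPKM in mice 3.2, 3.3 and 3.5.

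The E-box was searched for in the same list. Of the 51 genes with a promoter window, 15 carried CACGTG, or 29.4%, beside 12.4% of all tested genes with a window. The median log2 fold change was -0.076 for those with the motif and -0.088 for those without.

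**Figure D4:**
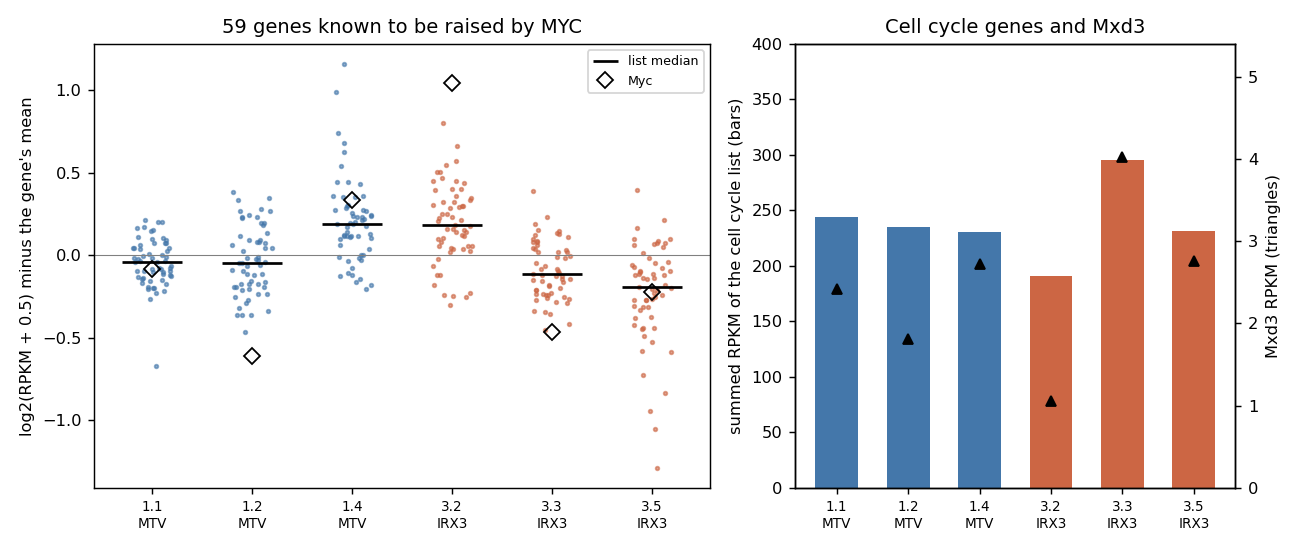
Left, log2(RPKM + 0.5) of 59 genes known to be raised by MYC, each minus its mean over 6 mice (points), with the list median (line) and Myc on the same scale (open diamond); blue are Hoxa9/MTV and orange Hoxa9/IRX3 mice. Right, summed RPKM of 21 cell cycle genes (bars, left axis from 0) and RPKM of Mxd3 (triangles, right axis from 0). Mice 1.4 and 3.2 have the highest list medians and the highest Myc, and mouse 3.2 has the lowest and mouse 3.3 the highest value of both measures on the right.

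Cell cycle genes were followed because *Mxd3* belongs to dividing cells. Of 21, 1 rose and 0 fell at an adjusted p under 0.05, with a median log2 fold change of -0.075. The 1 call is 4.76% of the list, near the 5.36% of all tested genes, and at an unadjusted p under 0.05 there were 2 higher and 3 lower, or 23.8% beside 24.3%, so the list stood close to the background. The gene that rose was *Ccne2*, a cyclin of the G1 to S transition named after its values were seen, at 1.55 ± 0.21 RPKM (SD, n = 3) in the controls and 2.83 ± 0.46 RPKM (SD, n = 3) with *IRX3* (limma, adjusted p = 0.045). Summed over the list, expression was 244.3, 235.0 and 230.3 RPKM in mice 1.1, 1.2 and 1.4 and 190.8, 295.3 and 231.3 RPKM in mice 3.2, 3.3 and 3.5. Mouse 3.2 was the lowest and mouse 3.3 the highest, as for *Mxd3*, and mouse 3.2, with the most *Myc*, thus had the lowest sum of these cell cycle genes.

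Several markers of cell types passed the test between the cohorts. Below, every marker other than *Elane* and *Ccr2* is named after its values were seen. Of 14 neutrophil granule and maturation genes 2 rose, or 14.3% beside the 1.84% of all tested genes, and 0 fell. They were *Elane*, a primary granule protease gene, from 794.4 ± 230.0 RPKM (SD, n = 3) to 2964 ± 629.9 RPKM (SD, n = 3) (limma, adjusted p = 0.014), and *Retnlg*, from 1.16 ± 0.13 to 5.48 ± 2.83 RPKM (limma, adjusted p = 0.028). The summed list was at 3132 to 4614 RPKM in the controls and 6903 to 7559 RPKM with *IRX3*, with much of the difference from *Elane*. Of the 14 genes, 11 had an estimate above 0 and 3 below it. The primary granule genes *Mpo*, *Prtn3* and *Ctsg* had log2 fold changes of 0.70, 0.71 and 1.03 without passing (limma, adjusted p = 0.115, 0.123 and 0.074). Genes of later granules did not pass and went both ways. Their log2 fold changes were -0.99 for *Ltf*, -0.75 for *Mmp8*, -0.13 for *Ngp*, 0.074 for *Camp*, 0.76 for *Lcn2* and 1.29 for *Mmp9*. Of 9 monocyte and macrophage genes 7 were tested and 1 fell, or 14.3% beside the 3.52% of all tested genes. It was *Ccr2*, from 22.4 ± 3.81 to 5.05 ± 1.39 RPKM (limma, adjusted p = 0.0084). The 9 genes summed to 48.4 to 68.8 RPKM in the controls and 22.5 to 63.8 RPKM with *IRX3*.

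Of 5 B cell genes 1 was tested, too few for a share to set beside the 3.52% of all tested genes that fell. It was *Cd79b*, which fell from 6.73 ± 0.54 to 0.929 ± 1.20 RPKM (limma, adjusted p = 0.038). *Cd79b* made up nearly all of the list's sum (6.25 to 7.13 and 0.276 to 2.31 RPKM). *Cd79a* was at 0.091 and 0.128 RPKM on average and *Ms4a1* and *Pax5* at 0 in each mouse. Of 4 mast cell and basophil genes 3 were tested and 1 fell, or 33.3% beside the 3.52% of all tested genes. It was *Cpa3*, from 1.02 ± 0.52 to 0.053 ± 0.060 RPKM (limma, adjusted p = 0.043). The sum of that list (10.2 to 14.4 and 4.31 to 7.30 RPKM) was mostly *Mcpt8*, at 11.6 ± 2.57 and 4.85 ± 1.76 RPKM (limma, adjusted p = 0.062), whereas *Ms4a2* was at 0.370 ± 0.15 and 0.877 ± 0.24 RPKM (limma, adjusted p = 0.103) and *Fcer1a* at 0 in each mouse. Of 6 T and NK cell genes 0 passed. Their sum was nearly all *Nkg7*, at 22.6 to 32.9 RPKM in the controls and 100.2, 14.9 and 482.0 RPKM in mice 3.2, 3.3 and 3.5, with *Cd3d* at 0. The erythroid globin genes *Hbb-bt* and *Hba-a1* were at 0 in each mouse, and the 3 megakaryocyte genes summed to at most 0.857 RPKM. Of 5 genes for sorted surface proteins 4 were tested and 1 rose, or 25% beside the 1.84% of all tested genes. It was *Ly6g*, to 1.08 ± 0.37 RPKM (SD, n = 3) from 0.108 ± 0.048 RPKM (SD, n = 3) (limma, adjusted p = 0.021). The far more abundant *Ly6c2* was at 443.7 ± 33.1 RPKM in the controls and 682.6 ± 234.0 RPKM with *IRX3*, with overlapping cohorts (limma, adjusted p = 0.278). *Kit* was detected in each mouse, at 1.63 to 3.12 RPKM. The part of these markers in the values of *Mxd1*, *Mlx* and *Mlxip* was not tested.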

How the data were processed

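RNA of sorted KIT+Gr1+ AML cells was sequenced in 6 mice, with cohorts taken from the sample labels. The authors made strand-specific polyA libraries from 200 ng of total RNA with 14 PCR cycles, read paired ends of 75 bases, aligned them to GRCm38 with Bowtie2 2.2.1, filtered with SAMtools 0.1.19 and deposited RPKM per gene. These values divide by the whole gene span, and the depth they divide by (7979246 to 9803621 reads per library) was recovered from their steps. Reads were whole, within 0.01 of a read, for 65.0% of tested genes on the GENCODE M21 span and for 99.0% after a search for the length used. Limits from reads cover counting error only.

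Protein-coding genes over 0.5 RPKM in at least 1 mouse (9522) were tested with limma 3.58.1 in R 4.3.3 (variance trend) on log2(RPKM + 0.5), with Benjamini-Hochberg adjustment over all of them, and passed at an adjusted p under 0.05. Folds on that scale understate changes of low genes. The script was tested on simulated data. Exact permutation tests used scipy 1.17.1. Alternatives were 2 pseudocounts, 2 filters, 2 scalings, no trend, array weights, exon length, voom on recovered reads, the criterion of the study, and leaving out each mouse. From the lists beside the members, passing genes averaging 5 RPKM or more were named, at most 3 each way per list, all partners, and the 3 genes closest to *Myc*. Exceptions are marked in the text. Members and lists were chosen with earlier results of these data known.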

Additional observations from a re-analysis of the deposited data

How the results depend on the processing

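In each of the 17 alternatives 0 of the tested members passed, and 4 of the 8, *Max*, *Mxd1*, *Mxi1* and *Mlx*, kept the sign of their estimate. Leaving out 1 mouse moved the log2 fold change of *Myc* between -0.23 and 0.53, *Mxd3* between -0.31 and 0.46, *Mxd4* between -0.18 and 0.032, *Mnt* between -0.27 and 0.0027, *Mlx* between 0.19 and 0.72, and *Mga* between -0.33 and 0.096. *Mxd3* was at -0.0014 with voom on recovered reads. *Mga* was at 0.026 with median-of-ratios scaling, 0.043 with quantile normalization and 0.010 under the criterion of the study. Among the genes raised by MYC, 0 to 1 passed as lower when a mouse was left out (*Ppan*, without mouse 3.2), and 1 met the criterion of the study (*Fbl*). The cause of these changes was not tested. The number of all tested genes that passed, 510, was 61 to 76 with a *Hoxa9*/MTV mouse left out, 482 to 761 with a *Hoxa9*/*IRX3* mouse left out, and 713 with exon length. No paired analysis was possible because the cohorts share no mouse numbers. With 3 mice per cohort no exact p can go below 0.1. *Myc* had the widest SE of the tested members (0.44) with 1697 to 5744 reads, and *Mxd3* the next (0.38) with 43 to 181.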
